A study of Mus musculus with 6 samples.

Results

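The Iroquois homeobox family of the mouse was followed in forelimb bud ectoderm with and without Sp8. Its members were taken by symbol, Irx1 to Irx6, and all 6 were found among the 49452 genes of the deposited table. The family was chosen by the rise of Irx2 in the comparison of Sp8 null with wild-type ectoderm, so the differences of its members between the genotypes are given as a description, with no p-value. RNA was measured at E10.5 in 6 libraries, each from the ectoderm of the 2 forelimbs of 1 embryo, freed with trypsin and forceps. The 3 wild-type embryos came from crosses of inbred C57BL/6 mice. The 3 Sp8 null embryos, labelled Sp8-Cre-ERT2, were bred from heterozygous (Sp8+/-) parents, and the labels give C57BL6J as the strain of both groups. By these crosses the groups were not littermates, but sample names of both groups begin with 4 or 5, a number whose meaning is not given. Whether embryos of both groups shared a litter is therefore not known. Cre-ERT2 is named for the null embryos alone, so loss of Sp8, presence of the allele and any difference in crosses cannot be told apart.

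Iroquois proteins are transcription factors of the TALE class of homeodomain proteins, which carry extra amino acids in a loop of the homeodomain and also include the Meis, Pbx and Tgif proteins. They were named after fly genes that set up the prepattern of sensory organs, and in vertebrates they help to pattern the neural tube, heart, limb and other organs. Mammalian Iroquois genes lie in a pair of clusters of 3 genes each. In the limb, Irx3 and Irx5 are best known for their joint role in the mesenchyme of the early bud.

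Family membership rests on the homeobox, and the reference sequences are shown here because near-identical copies can exchange sequencing reads. For each member a window of 189 coding bases in the homeobox region was read from the GENCODE M21 transcripts of GRCm38, and bases that differ from Irx2 are in capitals, 5′ to 3′.
Irx2: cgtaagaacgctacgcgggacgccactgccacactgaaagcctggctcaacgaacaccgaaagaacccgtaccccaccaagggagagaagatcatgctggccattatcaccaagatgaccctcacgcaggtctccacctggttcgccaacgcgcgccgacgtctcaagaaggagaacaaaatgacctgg
Irx5: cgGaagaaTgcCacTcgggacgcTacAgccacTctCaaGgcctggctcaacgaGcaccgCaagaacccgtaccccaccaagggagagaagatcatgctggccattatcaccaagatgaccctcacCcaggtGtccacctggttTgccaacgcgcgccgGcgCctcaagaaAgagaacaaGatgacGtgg
Irx1: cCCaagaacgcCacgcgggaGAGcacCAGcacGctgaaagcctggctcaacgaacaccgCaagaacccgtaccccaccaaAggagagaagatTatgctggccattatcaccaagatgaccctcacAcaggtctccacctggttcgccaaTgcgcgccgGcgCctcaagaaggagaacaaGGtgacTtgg
Irx3: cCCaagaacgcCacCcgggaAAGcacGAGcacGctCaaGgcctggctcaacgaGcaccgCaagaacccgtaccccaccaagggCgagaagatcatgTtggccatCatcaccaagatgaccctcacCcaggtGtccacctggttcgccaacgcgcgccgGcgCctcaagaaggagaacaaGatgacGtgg
Irx4: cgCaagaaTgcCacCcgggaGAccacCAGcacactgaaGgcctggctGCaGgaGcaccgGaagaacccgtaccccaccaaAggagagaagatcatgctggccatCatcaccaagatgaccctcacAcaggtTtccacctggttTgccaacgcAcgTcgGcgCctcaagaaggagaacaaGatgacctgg
Irx6: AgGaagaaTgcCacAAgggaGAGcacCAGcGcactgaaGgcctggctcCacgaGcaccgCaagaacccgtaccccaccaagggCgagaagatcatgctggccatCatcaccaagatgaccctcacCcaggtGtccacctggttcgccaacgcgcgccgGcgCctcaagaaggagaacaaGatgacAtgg
The windows start at coding base 355 in Irx2, 346 in Irx5, 391 in Irx1, 400 in Irx3, and 439 in both Irx4 and Irx6. Irx5 differed from Irx2 at 19 bases, Irx1 at 20, Irx3 at 24, and Irx4 and Irx6 at 25 each. Over all pairs the identity in the window ran from 86.8%, between Irx2 and Irx4 and between Irx2 and Irx6, to 92.6%, between Irx3 and Irx6. The longest stretch of identical coding bases was 88 bases, shared by Irx3 and Irx6, followed by 65 bases shared by Irx2 and Irx5. Of all words of 50 bases in the annotated transcripts, 0.48% of those of Irx2 also occurred in another member, as did 0.55% for Irx5, 1.45% for Irx3, 1.16% for Irx6 and none for Irx1 and Irx4. Read length is not given in the sources used here, and most of each transcript is unique to its gene at this length. On the opposite strand, 2.72% of the words of Irx3 occurred in its antisense gene Irx3os and 2.38% of those of Irx6 in the antisense gene Gm45505. Without strand, reads from such a pair cannot be told apart.

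The libraries differed little in depth, which can be read only in relative terms from the steps of low values. Set against wild-type embryo 1, it was between 0.842 and 1.03 in the other 5 libraries, and 11835 to 12245 genes per library reached 1 FPKM, FPKM being fragments per length of transcript and per amount of mapped fragments. Sp8, the targeted gene, was at 0.766, 0.46 and 1.14 FPKM in the null libraries and at 8.35, 10.97 and 13.5 FPKM in wild type, so each library followed its label. Surface ectoderm markers were present throughout, the highest being Cldn6, a tight junction protein, at a mean of 331 FPKM over the 6 libraries. Over the whole table limma called 829 of 12133 tested genes (Benjamini-Hochberg adjusted p under 0.05), which is 6.83%, and 204 of these, 1.68% of the tested genes, were higher in Sp8 null. The calls depended on scaling between libraries: 24.6% of them were higher in Sp8 null as deposited, 37.2% after median-of-ratios scaling (322 up, 544 down) and 41.7% after upper-quartile scaling (363 up, 507 down). The median log2 fold change of all tested genes moved from -0.056 to 0.006 and 0.026 under these scalings, and the 4 members past the filter, Irx1, Irx2, Irx4 and Irx5, moved by less than 0.1 with them. An unadjusted p under 0.05 was found for 24% of the tested genes (2914 of 12133), the share to set beside such counts in the lists that follow.

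The mean level of all 6 Iroquois genes was higher in Sp8 null than in wild type, and for 5 of them, all but Irx6, the lowest null library lay above the highest wild-type library. Such a separation upwards was found for 7.47% of the 27766 genes with any value above 0. The ratios of mean FPKM, null over wild type, ran from 2.02 for Irx6 to 3.27 for Irx2, with a median of 3.02. Of the 6 members, 4 passed the filter of 1 FPKM in at least 3 libraries, Irx1, Irx2, Irx4 and Irx5, and all 4 are among the genes that the fit over the whole table called higher. Irx1 and Irx5 reached 1 FPKM in the null libraries alone, so they could enter the test only by differing. Nothing is read from these counts, since this contrast chose the family. In bulk RNA, more cells that express a gene and more RNA per cell cannot be told apart.

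Irx2 was the most abundant member. It lies on chromosome 13 (ENSMUSG00000001504; GRCm38, 72628820 to 72634198, plus strand, protein-coding), in the cluster called IrxA. Its level was 35.1, 38.9 and 40.5 FPKM in Sp8 null embryos 1, 2 and 3, and 11.9, 12.5 and 10.6 FPKM in wild-type embryos 1, 2 and 3. The null libraries all stood far above wild type, and the lowest null value was 2.80 times the highest wild-type value. The means were 38.2 ± 2.81 and 11.7 ± 0.973 FPKM (SD, n = 3 each). On the log2(FPKM + 1) scale the difference was 1.63 (SE 0.09), which placed Irx2 at rank 25 of the 12133 tested genes ordered from the largest rise.

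Irx4, known for its role in the ventricles of the heart, was second in level (ENSMUSG00000021604; chromosome 13, 73260479 to 73269608, plus strand). It was at 7.32, 7.96 and 6.57 FPKM in Sp8 null embryos 1 to 3 and at 2.78, 1.93 and 2.08 FPKM in wild-type embryos 1 to 3. The groups were well apart, with means of 7.28 ± 0.697 and 2.27 ± 0.455 FPKM (SD, n = 3 each). The log2 difference was 1.35 (SE 0.13), at rank 48.

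Irx1 is the third gene of the IrxA cluster (ENSMUSG00000060969; chromosome 13, 71957921 to 71963723, minus strand). It was low in every library, at 1.38, 1.502 and 1.34 FPKM in Sp8 null embryos 1 to 3 and at 0.570, 0.409 and 0.510 FPKM in wild-type embryos 1 to 3. The groups did not overlap, and the ratio of means was 2.83. The log2 difference was 0.69 (SE 0.11).

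The IrxB cluster on chromosome 8 was expressed at lower levels. Irx5 (ENSMUSG00000031737; 92357625 to 92376286, plus strand), which acts in the heart and retina as well as in the limb bud, was at 1.81, 1.80 and 1.63 FPKM in Sp8 null embryos 1 to 3. In wild-type embryos 1 to 3 it was at 0.675, 0.605 and 0.352 FPKM. These values did not overlap, the ratio of means was 3.21, and the log2 difference was 0.84 (SE 0.13).

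Irx3 (ENSMUSG00000031734; 91798525 to 91802067, minus strand) stayed under 1 FPKM everywhere and could not be tested with the filter. It was at 0.501, 0.745 and 0.648 FPKM in Sp8 null embryos 1 to 3 and at 0.349, 0.236 and 0.267 FPKM in wild-type embryos 1 to 3. The groups were apart by less than those of the genes above, the lowest null value being 1.44 times the highest wild-type value. Its antisense gene Irx3os shares 124 exonic bases with it and was at most 0.325 FPKM in any library, in Sp8 null embryo 2, where Irx3 was highest too. Irx6 (ENSMUSG00000031738; 92674288 to 92680956, plus strand), known from bipolar cells of the retina, was near the floor of the measurement. It was at 0.197, 0.238 and 0.0733 FPKM in the null libraries and at 0.136, 0.0796 and 0.0357 FPKM in wild type. Its groups overlapped, since Sp8 null embryo 3 fell below wild-type embryos 1 and 2.

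**Figure D1:**
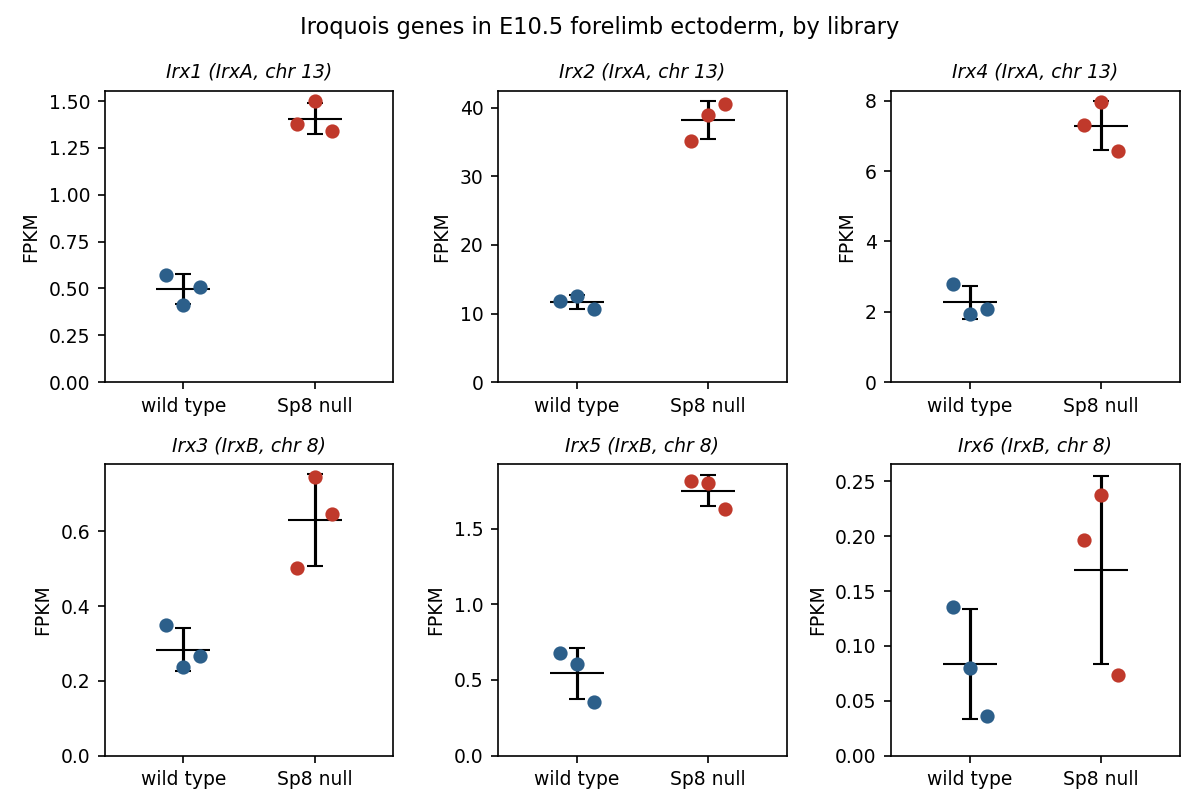
FPKM of each Iroquois gene in wild-type and Sp8 null forelimb ectoderm. Points are libraries in the order of embryos 1 to 3, horizontal lines are group means and bars are SD (n = 3), and each panel has its own axis from 0. Null points lie above all wild-type points for every gene but Irx6, whose groups overlap.

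The authors' deposited table also holds 2 means per gene, headed control and sample, which are taken here for wild type and Sp8 null from those names, on a scale that resembles read counts and is not explained. They were 578 (control) and 1905 (sample) for Irx2, and 224 and 720 for Irx4. In the authors' deposited table they were 49.9 and 169 for Irx5, 44.7 and 131 for Irx1, 33.6 and 70.8 for Irx3, and 8.07 and 15.5 for Irx6. The ratio of these means was 3.30 for Irx2, 3.21 for Irx4, 3.39 for Irx5, 2.94 for Irx1, 2.11 for Irx3 and 1.92 for Irx6, from the authors' deposited table.

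The order of the log2 differences among the members followed their level, because a pseudocount of 1 compresses genes near 1 FPKM. Without a pseudocount the mean log2 ratio was 1.74 (SE 0.29) for Irx5, 1.71 (SE 0.09) for Irx2, 1.70 (SE 0.18) for Irx4 and 1.51 (SE 0.15) for Irx1, each SE from the spread of the 3 libraries of each group. Irx3 had a lower ratio, 1.15 (SE 0.24), and that of Irx6, 1.05, had an SE of 0.77. Differences in ratio between members were not tested.

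Since FPKM is per kilobase, levels can be set side by side between members. Irx2 made up 76.0% of the summed FPKM of the family in wild type and 77.2% in Sp8 null, going by group means. The sum was above every wild-type library in each null library, at 46.3, 51.1 and 50.8 FPKM in Sp8 null embryos 1 to 3 against 16.4, 15.8 and 13.9 FPKM in wild-type embryos 1 to 3. The order of levels was Irx2, Irx4, Irx5, Irx1, Irx3 and Irx6 in 5 libraries. In wild-type embryo 3, Irx1 stood above Irx5, at a ratio of Irx5 to Irx1 of 0.69, whereas this ratio was between 1.18 and 1.48 in the other libraries. Irx1 and Irx5 in wild type thus did not differ beyond their spread. The ratio of Irx2 to Irx4 was between 4.27 and 6.49 in wild type and between 4.79 and 6.17 in Sp8 null, so the balance of the pair overlapped between genotypes.

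The IrxA cluster spans 1312 kb, with 665 kb between Irx1 and Irx2 and 626 kb between Irx2 and Irx4, and the IrxB cluster 882 kb, with 556 kb between Irx3 and Irx5 and 298 kb between Irx5 and Irx6. Other genes within 1 Mb of the clusters were not used in choosing the family, and they were tested to see whether they moved too. Of 99 such genes measured here, 25 passed the filter, their median was -0.0038 on the log2 scale, and limma called 3, namely 2 higher and 1 lower, beside 6.83% of all tested genes. Of these 3, Gm20554 alone passed the filter in both groups. Gm25197 passed it only through Sp8 null and Slc6a2 only through wild type, so these 2 could enter the test only by differing, and Gm25197 goes the other way in the authors' deposited table, which leaves 1 higher call besides it. Among the 18 protein-coding neighbours tested, 1 was called. The 22 neighbours that were not called had log2 fold changes between -0.85 and 1.30.

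The called neighbour nearest to Irx2 was Gm20554, a long intergenic noncoding RNA gene on the minus strand (chromosome 13, 72626213 to 72628564). It is separated from Irx2 by 255 bases, reads away from it and shares no exonic base with it. Its level was 7.74, 7.53 and 6.41 FPKM in Sp8 null embryos 1 to 3 and 2.30, 1.55 and 1.97 FPKM in wild-type embryos 1 to 3, with no overlap. It rose from 1.94 ± 0.374 to 7.22 ± 0.714 FPKM (SD, n = 3 each; log2 difference 1.49 ± 0.13 SE, adjusted p = 0.000758 by limma). In the authors' deposited table its fold change was 2.99, beside 3.18 for Irx2.

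Beyond the IrxA cluster, Ndufs6, a subunit of respiratory complex I and the nearest tested gene beyond Irx4 at 50.2 kb, was at 99.96 ± 15.8 FPKM (Sp8 null) and 111 ± 16.6 FPKM (wild type) (SD, n = 3 each; log2 difference -0.16 ± 0.14 SE, adjusted p = 0.561 by limma). On the other side, beyond Irx1, no gene within 1 Mb passed the filter. Nkd2, an inhibitor of Wnt signalling, had a log2 fold change of 1.30 with an SE of 0.49 (limma adjusted p = 0.16), and was named after its values were seen. It was at 5.79, 17.5 and 5.52 FPKM in Sp8 null embryos 1 to 3 and at 5.31, 1.18 and 2.96 FPKM in wild-type embryos 1 to 3, so its mean rested largely on Sp8 null embryo 2. The other call beyond Irx4 was Gm25197, a gene of a short RNA inside Trip13, listed at 7.69, 3.29 and 6.53 FPKM in Sp8 null embryos 1 to 3 and at 0 in all wild-type libraries. Its fold change in the authors' deposited table was -1.07, with means of 5.72 (control) and 4.16 (sample), so the direction differs between the 2 kinds of value and no fold is given.

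Around the IrxB cluster, Fto, which encodes an RNA demethylase and is the nearest tested gene beyond Irx3 at 130 kb, was at similar levels in both genotypes, with overlapping groups. It was at 30.1 ± 2.77 FPKM (Sp8 null) and 29.5 ± 1.64 FPKM (wild type) (SD, n = 3 each; log2 difference 0.03 ± 0.09 SE, adjusted p = 0.885 by limma). Fto, Rpgrip1l and Aktip are removed together with Irx3, Irx5 and Irx6 in the Fused toes deletion, a classic limb mutation of the mouse. None of these 3 neighbours was called by limma, nor did any have an unadjusted p under 0.05 (0 of 3, beside 24% of all tested genes), and their median log2 fold change was 0.03. On the far side, Mmp2, a matrix metalloprotease 146 kb beyond Irx6, was at 7.69 ± 3.57 FPKM (Sp8 null) and 14.0 ± 2.62 FPKM (wild type) (log2 difference -0.85 ± 0.27 SE, adjusted p = 0.106 by limma). Leaving out Sp8 null embryo 2 gave a call for Mmp2, at -1.16 (limma adjusted p = 0.0102). Slc6a2, the noradrenaline transporter, 279 kb beyond Irx6, fell from 1.71 ± 0.151 to 0.138 ± 0.0337 FPKM (SD, n = 3 each; log2 difference -1.25 ± 0.11 SE, adjusted p = 0.00114 by limma). It was low in each null library and at 1.55 FPKM or more in each wild-type library, opposite in direction to the Iroquois genes of its chromosome.

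**Figure D2:**
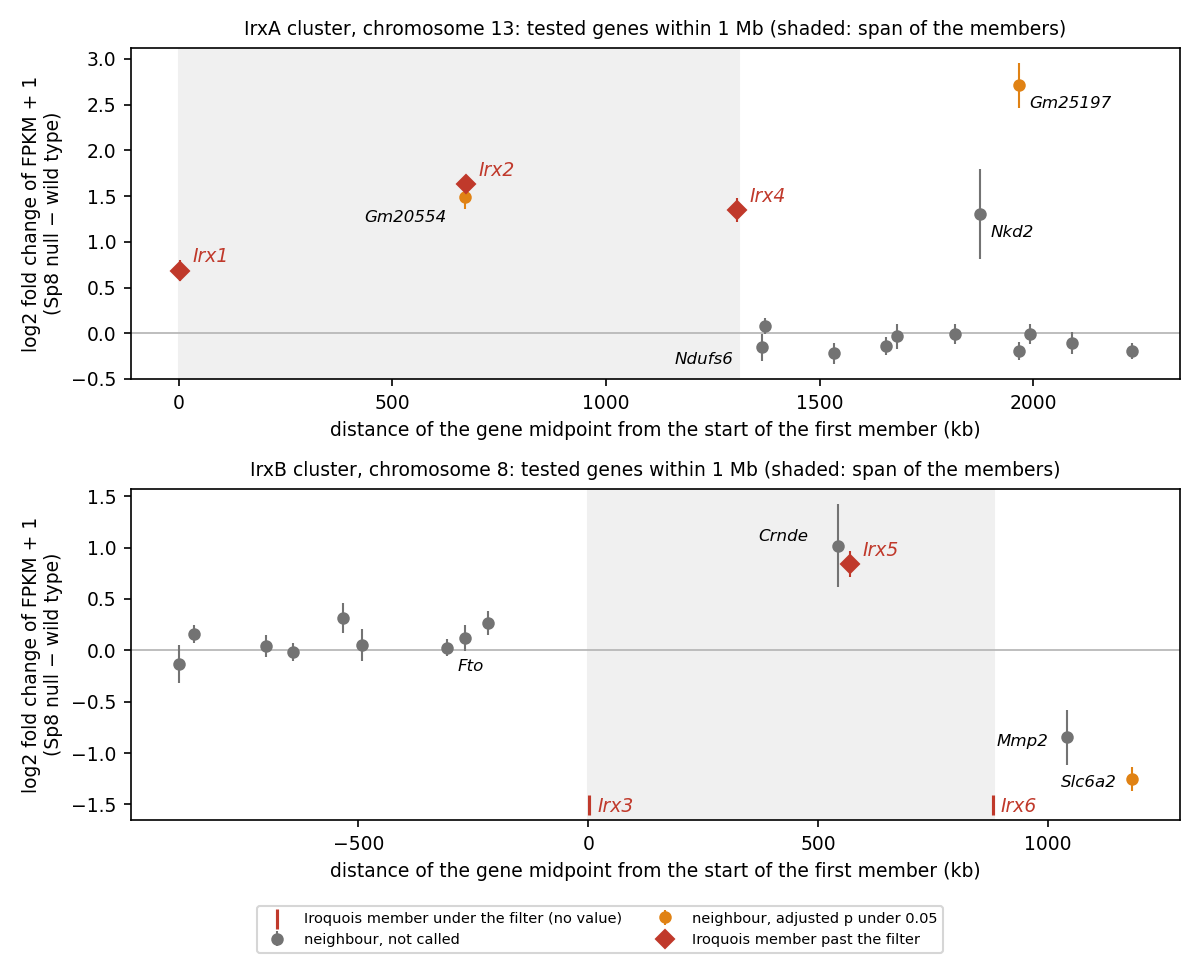
Log2 fold change of FPKM + 1 (Sp8 null minus wild type, bars SE) for tested genes within 1 Mb of the IrxA and IrxB clusters, against distance in kb from the start of the first member. Red diamonds are Iroquois genes, orange points called neighbours and grey points uncalled ones, and red ticks mark the positions of Irx3 and Irx6, which were under the filter. Gm20554 sits beside Irx2 at 1.49 and Slc6a2 at -1.25, while Ndufs6 and Fto lie near 0.

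The stretch between Gm20554 and Irx2 is shown because both of its flanking genes were higher in Sp8 null. RefSeq promoter windows on GRCm38.p6 were found for 3 of the 6 members, Irx2, Irx3 and Irx4, and the 250 bases before the RefSeq start site were read. That site lies within the GENCODE span given above for Irx3, whose window falls wholly inside the gene, and for Irx4, and positions are counted from the RefSeq sites. The window of Irx2 (chr13:72628570-72628819, plus strand) nearly fills the gap between the pair of genes, and the capitals mark the GC box GGGCGG, a short sequence that factors of the Sp family are known to bind.
Irx2 upstream: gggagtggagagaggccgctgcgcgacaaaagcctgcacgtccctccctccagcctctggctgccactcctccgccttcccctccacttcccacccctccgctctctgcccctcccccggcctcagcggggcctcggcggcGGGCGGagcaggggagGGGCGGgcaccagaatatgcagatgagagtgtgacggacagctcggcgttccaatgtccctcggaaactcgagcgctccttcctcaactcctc
Irx4 upstream: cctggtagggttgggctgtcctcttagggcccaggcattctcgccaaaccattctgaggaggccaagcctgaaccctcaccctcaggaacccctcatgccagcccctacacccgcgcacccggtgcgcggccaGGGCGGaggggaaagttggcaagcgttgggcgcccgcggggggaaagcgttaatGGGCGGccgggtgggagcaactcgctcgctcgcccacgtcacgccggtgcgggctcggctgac
The window of Irx4 (chr13:73260247-73260496, plus strand) is set beside it as the other well expressed member. GGGCGG or its reverse complement CCGCCC occurred 2 times in each window, starting 109 and 93 bases before the start of Irx2 and 117 and 63 bases before that of Irx4, with no overlap between matches. A further match starts 7 bases before Gm20554, at the far edge of the gap, and is cut by the end of the Irx2 window. The window of Irx3 held none. Over all 32851 windows of this length 32.7% held a match, and the windows of Irx2 and Irx4 were rich in G and C, at 68.4% and 68.8% against a median of 52.4%. The Iroquois site ACANNTGT, present in 6.3% of all windows, and the homeodomain site TAATTA, present in 4.8%, were searched on both strands and found in none of the 3. A match is a run of letters, and binding was not measured.

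The other TALE genes, relatives and partners of the family, showed no call. None of the 11 tested of 12 was called by limma, and none had an unadjusted p under 0.05 (0 of 11, beside 24% of all tested genes). Their median log2 fold change was 0.08, beside -0.056 over all tested genes, and the single values ran from -0.22 for Meis1 to 0.29 for Pbx2.

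Other homeobox genes of limb and ectoderm mostly moved the other way. Of 16 listed 13 were tested, and limma called 8 lower and 1 higher, beside 625 lower and 204 higher of all 12133 tested genes. The median of the list was -0.97 on the log2 scale, and 11 of 13 had an unadjusted p under 0.05 (24% of all tested genes). The log2 difference was positive for 1 of 13, beside 38.7% of all tested genes. Dlx1, Dlx2, Dlx3, Dlx4 and Dlx5, of the distal-less family, fell, and Dlx2 had the largest fall, from 10.1 ± 1.12 to 1.92 ± 0.735 FPKM (SD, n = 3 each; log2 difference -1.95 ± 0.20 SE, adjusted p = 0.0017 by limma). Values for its relatives were -1.76 for Dlx1, -1.05 for Dlx5, -0.97 for Dlx4 and -0.78 for Dlx3 (limma adjusted p = 0.00412, 0.0201, 0.00619 and 0.0054). Dlx4 passed the filter only through wild type, and the call of Dlx5 was lost without Sp8 null embryo 1 (-1.04, limma adjusted p = 0.0652), wild-type embryo 1 (-1.02, 0.0622) or wild-type embryo 2 (-0.97, 0.0904). Msx1 and Msx2, which respond to BMP signals, fell by 1.23 and 1.73, and En1, a determinant of ventral ectoderm, fell by 1.71 in log2 units (by limma, adjusted p = 0.00467, 1.62e-05 and 0.00634). Barx2, a homeobox gene of epithelia and muscle, was the gene of the list that rose, from 1.81 ± 0.0793 to 4.02 ± 0.738 FPKM (SD, n = 3 each; log2 difference 0.83 ± 0.13 SE, adjusted p = 0.0116 by limma), a call lost without wild-type embryo 2 (0.85, limma adjusted p = 0.0507). Hoxc8, the most abundant uncalled gene of the list, was at 21.9 ± 5.31 FPKM (Sp8 null) and 28.7 ± 2.45 FPKM (wild type) (log2 difference -0.40, adjusted p = 0.204 by limma).

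**Figure D3:**
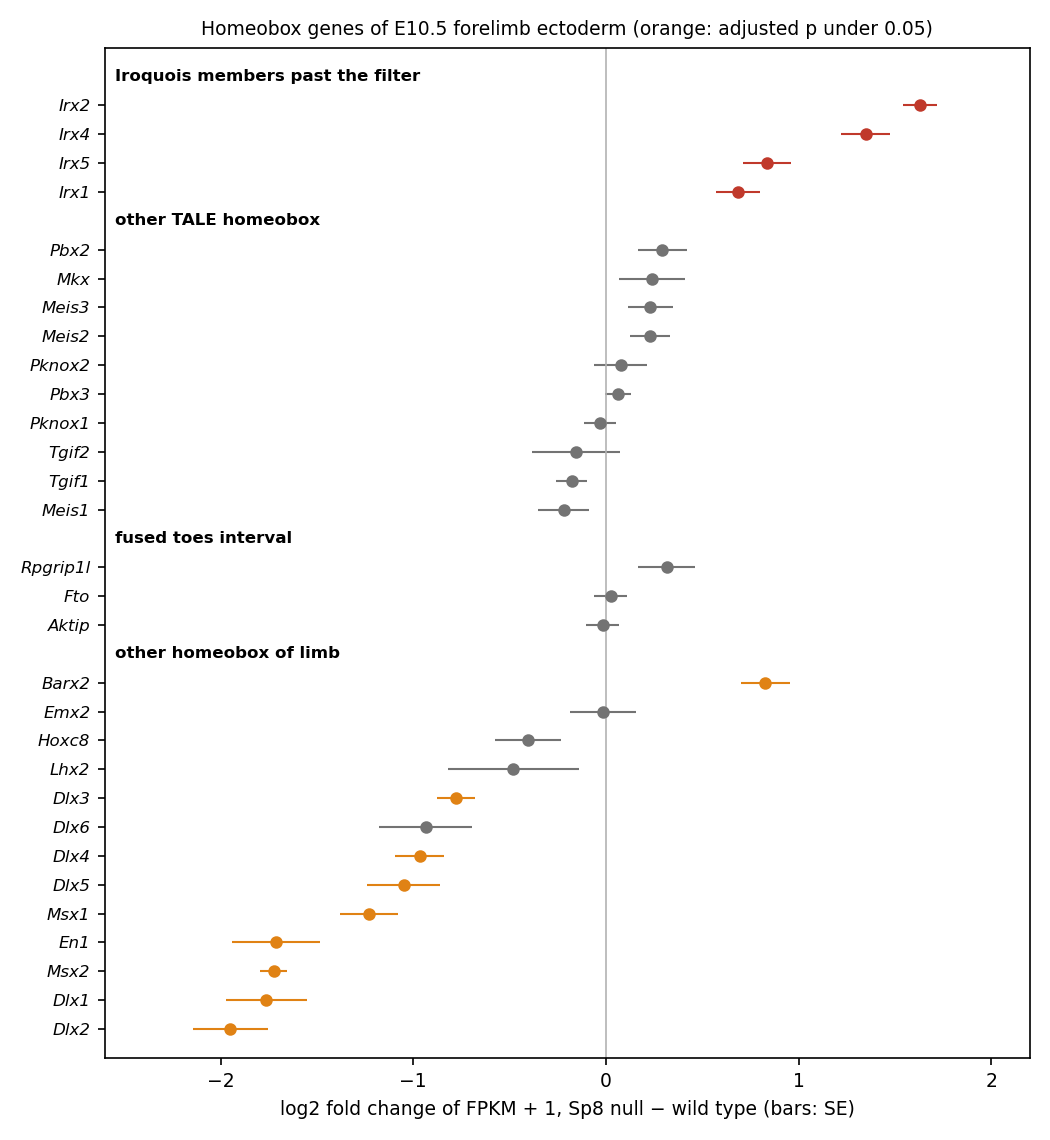
Log2 fold change of FPKM + 1 (Sp8 null minus wild type, bars SE) for the homeobox genes named on its axis and for the non-Iroquois genes of the Fused toes deletion. Red points are Iroquois genes, between 0.69 and 1.63, orange points are other genes called by limma and grey points uncalled genes. The TALE relatives shown lie between -0.22 and 0.29, and the called Dlx, Msx and En1 genes lie to the left of 0.

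Hedgehog signalling sets the borders of Iroquois domains in several tissues, so its components were listed too. Of 9 genes 7 were tested and none was called by limma, with a median log2 fold change of 0.02, while 2 of 7 had an unadjusted p under 0.05, a share near the 24% of all tested genes. Those were the receptor Ptch1, at 26.1 ± 7.14 FPKM (Sp8 null) and 41.9 ± 2.35 FPKM (wild type) (log2 difference -0.70 ± 0.19 SE, adjusted p = 0.0686 by limma), and the transcription factor Gli2 (0.40, limma adjusted p = 0.193), both named after their values were seen. Without Sp8 null embryo 2, 1 of the 7 was called. Gli3, the most abundant on average and also a marker of mesenchyme, was at 39.6 ± 6.00 and 32.9 ± 4.46 FPKM (log2 difference 0.26, adjusted p = 0.279 by limma). The ligand Shh was at most 0.494 FPKM in any library.

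Cell types other than ectoderm were checked by their markers, because Irx3 and Irx5 are also genes of limb mesenchyme. All 15 mesenchymal markers were in the table, 12 were tested (median log2 difference 0.98), and 1 was called by limma, Lmx1b, the dorsal limb factor, which was higher in Sp8 null (1.07, SE 0.18, limma adjusted p = 0.0166). That call was lost without wild-type embryo 2 (0.99, limma adjusted p = 0.0768) or 3 (1.01, 0.0581). Summed FPKM of the list was 99.7, 247 and 93.6 in Sp8 null embryos 1 to 3 and 124, 74.1 and 93.1 in wild-type embryos 1 to 3, so that Sp8 null embryo 2 stood apart, and no marker of the list was at 0 in every library. A higher mean in Sp8 null was found for 13 of the 15 markers. The log2 difference was positive for 9 of 12, beside 38.7% of all tested genes, and 6 of 12 had an unadjusted p under 0.05, beside 24%. Twist2, Lmx1b and Col3a1 were above every wild-type library in each null library, and Pdgfra and Meox1 were below every wild-type library in each. Twist2, Col3a1 and Pdgfra were named after their values were seen. Separation upwards was found for 7.47% of the 27766 genes with any value above 0. Irx1, Irx3, Irx4 and Irx6 had their highest values in Sp8 null embryo 2, and the part of mesenchyme in the Iroquois values was not tested. Without that library, and with the same genes tested, the log2 differences were 1.61 for Irx2, 1.29 for Irx4, 0.82 for Irx5 and 0.66 for Irx1.

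The 13 surface ectoderm markers summed to between 935 and 1212 FPKM in Sp8 null and between 1132 and 1254 in wild type, with a median log2 fold change of -0.08. Of these, limma called Epcam lower (-0.53 ± 0.11 SE, adjusted p = 0.0313) and Tfap2a higher (0.52, SE 0.09, adjusted p = 0.0163), and Cldn6 was not called (0.05, adjusted p = 0.888). Over all tested genes 6.83% were called. An unadjusted p under 0.05 was found for 6 of the 13 markers, beside 24% of all tested genes. Krt5, Krt14 and Perp, named after their values were seen, were, like Epcam, below every wild-type library in each null library. Tfap2a was above every wild-type library in each. The call of Epcam was lost without any 1 of Sp8 null embryos 1 and 2 and wild-type embryos 1, 2 and 3 (limma adjusted p from 0.0585 to 0.132), and that of Tfap2a without any 1 wild-type embryo (0.0546 to 0.0608). Neural tissue, where Iroquois genes are strong, was low by its markers. Of its 10 markers matched by symbol, 5 were at 0 in every library and 1 was tested, Nes, an intermediate filament gene that is not confined to neurons, which fell (-0.46, limma adjusted p = 0.0185). Its call was lost without any 1 library but wild-type embryo 1 (limma adjusted p from 0.0502 to 0.11). Of 8 somite and muscle markers Meox1 alone was tested, and it was not called (-0.99, limma adjusted p = 0.0678), but was without wild-type embryo 1 (-1.28, 0.0196). The 7 macrophage markers, led by Fcer1g, were all under the filter but had a higher mean in Sp8 null in 7 of 7 cases, with sums of 1.52 to 2.82 FPKM against 0.276 to 0.843 in wild type. The 9 endothelial markers, led by Egfl7 (log2 difference 0.15, adjusted p = 0.595 by limma), summed to between 2.63 and 4.55 FPKM in Sp8 null and between 2.23 and 3.05 in wild type. Of these markers 8 had a higher mean in Sp8 null. Pecam1 and Cdh5, both under the filter and named after their values were seen, were above every wild-type library in each null library. The 6 erythroid genes, led by Hbb-y (0.75, limma adjusted p = 0.735), summed to 417 FPKM in wild-type embryo 1 and to between 11.4 and 160 in the other libraries. The part of these cell types in the Iroquois values was not tested.

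**Figure D4:**
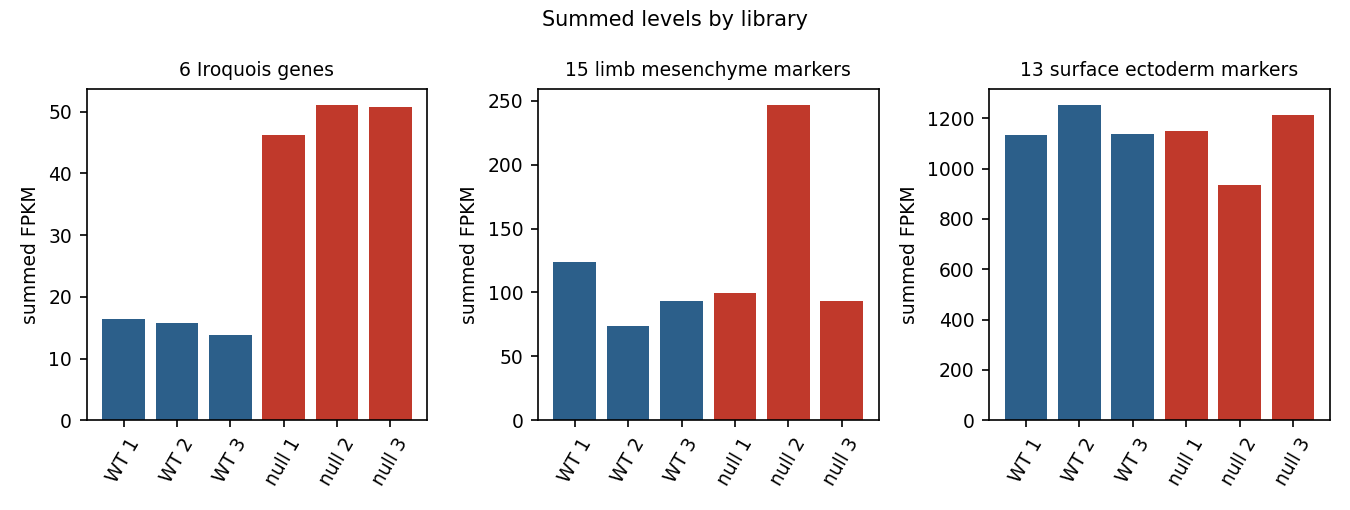
Summed FPKM by library of the 6 Iroquois genes, of 15 limb mesenchyme markers and of 13 surface ectoderm markers, with bars from 0, wild type in blue and Sp8 null in red. The Iroquois sum is above 46 FPKM in each null library and at most 16.4 in wild type. The mesenchymal sum is highest in Sp8 null embryo 2, at 247, and 13 of its 15 markers have a higher mean in Sp8 null. The part of mesenchyme in the Iroquois values was not tested.

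Genes with the profile most like that of a member were listed by the root-mean-square difference of log2(FPKM + 1) over the 6 libraries, after each gene was centred on its own mean, among 10632 protein-coding candidates. As the genotypes dominate these profiles, such genes were bound to be higher in Sp8 null, and no test is attached to them. Nearest to Irx2 was Slc8a3, a sodium-calcium exchanger (0.135), then Pthlh, a peptide hormone (0.163), Wnt10b, a Wnt ligand (0.165), Mt1, a metallothionein, and Edn3, a ligand of endothelin receptors (0.166 each), beside a median of 0.856 over all candidates. Wnt10b, for instance, was at 10.6, 14.2 and 13.3 FPKM in Sp8 null embryos 1 to 3 and at 4.26, 4.12 and 4.32 FPKM in wild-type embryos 1 to 3. Nearest to Irx4 were Cxcl14, a chemokine of epithelia (0.097), Mt1 (0.101) and Adamts17, a secreted protease (0.132). Cxcl14 was high in level, at 66.3, 63.6 and 64.2 FPKM in Sp8 null embryos 1 to 3 and 29.0, 20.2 and 21.4 FPKM in wild-type embryos 1 to 3. Nearest to Irx1 were Ttc28 (0.039), Hmgn3 (0.059) and Rab30 (0.063), and nearest to Irx5 were Hgf, a growth factor (0.088), Pex5l (0.091) and Vgll3 (0.105). The measure weighs the size of a change on the log2(FPKM + 1) scale.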

How the data were processed

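RNA of 6 forelimb ectoderm libraries was measured, 3 per genotype, with groups from the sample titles. The authors deposited FPKM per library and gene, with a status for each estimate, and per the file headers the gene models are Ensembl build 87. The deposited table also holds a signal per group (a mean headed control or sample), a fold change given here as the authors' signed score and a p-value, and how these were made is not given in the sources used here. Per the submitters' processing notes, which assign no roles, FastQC, TopHat2, SAMtools, Cufflinks and DESeq2 were used, with build GRCm38. Per the labels' protocols, polyadenylated RNA was made into TruSeq v2 libraries.

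Here genes that reached 1 FPKM in 3 or more libraries were analysed as log2(FPKM + 1). The model, run in limma 3.58.1 (R 4.3.3), had genotype as its sole term and a mean-variance trend. P-values are two-sided and were adjusted by Benjamini-Hochberg over all 12133 tested genes, and a gene is called at an adjusted p under 0.05. The fit was tested on simulated data, and the outcome is not reported here. Fold changes on this scale understate changes of low genes. As FPKM holds no read counts, count models and counting intervals were not used. The labels say each library is 1 embryo, so p-values measure the spread between embryos. Proteins of the members were not used here, and coding bases were compared instead. Genes were matched by Ensembl identifier to GENCODE M21 (49109 of 49452), the source of coordinates. The members, lists and tests were chosen with earlier results of these data known. Named genes are the members, Sp8, called neighbours within 1 Mb and the nearest tested neighbour on each side, called genes of the lists and the most abundant uncalled gene of each homeobox, Fused toes and Hedgehog list, the most abundant marker of each cell type and the genes nearest in profile, and others are said to be named after their values were seen. A gene that this rule names is not reported here. Alternatives were another pseudocount, no filter, other scalings, each library left out, a replicate block, a covariate from the first digit of the sample names, failed estimates left out, no trend, and flanks of 500 kb and 2 Mb.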

Additional observations from a re-analysis of the deposited data

How the results depend on the processing

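The differences of the members past the filter, a description, kept their sign wherever they were fitted, that of Irx2 lying between 1.57 and 1.72. Of the 4 members over the threshold, Irx1 was under it with the replicate block and without wild-type embryo 2, Irx5 with no filter, and both were under the filter when a null library was left out and the filter applied anew. With the tested genes kept, Irx1 was under the threshold without Sp8 null embryo 1 or 2 or wild-type embryo 2. With a pseudocount of 0.1 the differences of Irx1 and Irx5 were 1.34 and 1.56. The number of called genes was 829, against 342 with no filter, 328 with the replicate block and 545 with a covariate from the first digit of the sample names. It was between 213 and 665 with each library left out, and, with the genes tested kept as in the full set (chosen after seeing the data), 394, 408 and 642 without Sp8 null embryos 1, 2 and 3 and 445, 316 and 510 without wild-type embryos 1, 2 and 3. Equal embryo numbers gave no pairing: the deviations of same-numbered libraries correlated at -0.164, -0.145 and -0.0699, and under the block the calls of Dlx5, Epcam, Nes and Tfap2a were lost. With no filter those of Barx2, Dlx5, Epcam, Lmx1b and Tfap2a were lost, and with the covariate that of Epcam. Neighbours called were 3 within 1 Mb, 2 within 500 kb and 6 within 2 Mb, those beyond 1 Mb being Mt1, Mt2 and Cpne2. With each library left out, 2 or 3 were called within 1 Mb. With the tested genes kept, 4 were called without Sp8 null embryo 2 and 3 without any other library. The Hedgehog list had between 0 and 1 call with each library left out. The sign turned for Fto (-0.044 without Sp8 null embryo 3, -0.006 without wild-type embryo 2, highest 0.080), Cldn6 (-0.034 without Sp8 null embryo 1, -0.058 without Sp8 null embryo 3, -0.007 without wild-type embryo 1, highest 0.233) and Hbb-y (-0.366 without wild-type embryo 3, highest 2.207). Where a value changed, the cause was not tested.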

Other observations

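Noncoding genes between the Iroquois genes of the IrxB cluster were read beside Gm20554, and were named after their values were seen. Crnde, a noncoding gene that lies 1504 bases from Irx5 on the opposite strand, was at 3.03, 4.21 and 5.42 FPKM in Sp8 null embryos 1 to 3 and at 3.59, 0.365 and 1.59 FPKM in wild-type embryos 1 to 3. Its groups overlapped at wild-type embryo 1, and it was not called (log2 fold change 1.02, SE 0.41, limma adjusted p = 0.179). Gm21817, a noncoding gene that lies within the span of Crnde on the same strand and shares no exonic base with it, was under the filter. It was at 0.431, 0.622 and 0.385 FPKM in Sp8 null embryos 1 to 3 and at 0.137, 0.132 and 0.057 FPKM in wild-type embryos 1 to 3, with no overlap between the groups. In the authors' deposited table its means were 11.4 (control) and 49.4 (sample).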
